A study of Mus musculus with 2 samples.

Results

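The Trav genes are the variable (V) segments of the T cell receptor alpha chain. All 128 gene symbols beginning with Trav in the feature tables of the 2 libraries were taken, of 31017 symbols in all. Both libraries held splenic CD8 T cells of wild-type C57BL/6J mice, 1 month after total CD8 T cells of CD45.1 mice aged 3 months had been transferred into CD45.2 mice aged 24 months. The old recipient library was made from sorted CD45.2+ CD3e+ CD8a+ cells, which belonged to the aged host (25 months at harvest), and the young donor library from CD45.1+ CD3e+ CD8a+ cells. Every cell of both libraries had therefore spent the last month in an aged mouse. Each population gave a single droplet 5' gene expression library, so population and library cannot be told apart. For that reason no test was run between them, and the intervals given cover counting error only. How many mice stand behind each library, and whether they were the same ones, is not in the labels. The matched receptor libraries were not analysed here.

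A T cell precursor builds its alpha chain by joining 1 V segment to 1 joining (J) segment, and its beta chain from the V segments called Trbv. The joint adds and removes bases at random, so cells with the same V segments usually carry different receptors, while the daughters of 1 cell keep the whole receptor. Because the alpha locus can rearrange on both chromosomes, a T cell can transcribe a second alpha chain. In C57BL/6 mice a stretch of the Trav cluster has been duplicated, and the copies carry the letters d and n in their names, as in Trav12d-2 and Trav12n-2.

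The members lay in a row on the plus strand of chromosome 14 (GRCm38, 52427928 to 53977678), over 1550.0 kb from Trav1 to Trav23. GENCODE M21 annotated 108 as genes and 20 as pseudogenes. They fell into 23 subgroups, the number after Trav. A letter d was carried by 39 members, a letter n by 34, and no letter by 55. The sequences below are V exons of GENCODE M21 transcripts on the plus strand, chosen because the results turn on them. Trav13-1 (chr14:53545247-53545525) and Trav12-2 (chr14:53616623-53616914) led the most Gzmk+ cells of the recipient. Trav14-1 (chr14:53554259-53554558, the last 300 of its 312 bases) and Trav7-6 (chr14:53717004-53717291) led the most Gzmk+ cells of the donor. Trav9d-3 (chr14:52920819-52921112), Trav3n-3 (chr14:53283885-53284175) and Trav3-3 (chr14:53666216-53666506) show how alike the copies can be. Capitals mark the bases that differ from the member with the closest V exon.
Trav13-1: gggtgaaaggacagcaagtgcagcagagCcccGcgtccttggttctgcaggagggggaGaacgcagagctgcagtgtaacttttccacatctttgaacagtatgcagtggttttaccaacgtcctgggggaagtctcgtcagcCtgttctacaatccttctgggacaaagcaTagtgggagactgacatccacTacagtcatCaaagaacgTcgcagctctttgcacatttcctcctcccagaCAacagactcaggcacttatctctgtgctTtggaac
Trav12-2: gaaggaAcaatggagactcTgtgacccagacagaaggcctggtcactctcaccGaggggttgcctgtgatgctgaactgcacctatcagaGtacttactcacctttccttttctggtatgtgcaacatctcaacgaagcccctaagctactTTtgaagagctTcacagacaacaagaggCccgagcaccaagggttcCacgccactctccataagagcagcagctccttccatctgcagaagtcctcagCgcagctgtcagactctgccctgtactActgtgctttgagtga
Trav14-1: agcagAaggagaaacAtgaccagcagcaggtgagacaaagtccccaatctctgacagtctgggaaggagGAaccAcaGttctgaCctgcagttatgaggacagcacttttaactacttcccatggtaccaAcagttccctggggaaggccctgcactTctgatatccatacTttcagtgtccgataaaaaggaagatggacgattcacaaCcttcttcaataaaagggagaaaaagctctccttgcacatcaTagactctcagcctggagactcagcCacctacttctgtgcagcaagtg
Trav7-6: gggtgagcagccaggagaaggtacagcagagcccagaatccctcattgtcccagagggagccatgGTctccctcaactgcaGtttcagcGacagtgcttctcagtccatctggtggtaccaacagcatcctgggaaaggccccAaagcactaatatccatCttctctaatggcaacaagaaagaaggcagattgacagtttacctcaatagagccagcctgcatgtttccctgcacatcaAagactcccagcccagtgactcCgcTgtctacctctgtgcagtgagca
Trav9d-3: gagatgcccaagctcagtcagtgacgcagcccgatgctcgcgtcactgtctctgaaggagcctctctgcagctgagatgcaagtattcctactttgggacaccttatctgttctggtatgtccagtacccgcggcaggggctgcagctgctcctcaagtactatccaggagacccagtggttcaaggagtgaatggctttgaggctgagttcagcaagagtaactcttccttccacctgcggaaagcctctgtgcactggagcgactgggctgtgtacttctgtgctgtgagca
Trav3n-3: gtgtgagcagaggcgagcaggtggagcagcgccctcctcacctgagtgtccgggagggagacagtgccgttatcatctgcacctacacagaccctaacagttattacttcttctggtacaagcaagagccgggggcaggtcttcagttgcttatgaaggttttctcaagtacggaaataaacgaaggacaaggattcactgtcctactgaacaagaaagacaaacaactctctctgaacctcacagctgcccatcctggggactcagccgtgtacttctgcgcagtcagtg
Trav3-3: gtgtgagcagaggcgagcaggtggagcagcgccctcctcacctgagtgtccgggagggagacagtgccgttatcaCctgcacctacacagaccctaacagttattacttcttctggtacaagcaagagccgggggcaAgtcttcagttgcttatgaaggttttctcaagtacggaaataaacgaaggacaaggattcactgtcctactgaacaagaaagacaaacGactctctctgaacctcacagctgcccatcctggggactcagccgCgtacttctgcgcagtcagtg
Trav13-1 differed from Trav13d-1 at 11 bases (96.06% identity), and Trav12-2 from Trav12d-2 at 11 bases (96.23%). Trav14-1 differed from Trav14d-1 at 13 bases (95.83%) and Trav7-6 from Trav7n-6 at 9 (96.88%). Trav9d-3 has no capitals because its V exon was identical to that of Trav9n-3. The V exon of Trav3n-3 was likewise identical to that of Trav3d-3, and Trav3-3 differed from Trav3n-3 at 4 bases (98.63% identity).

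Of the 128 members, 112 had at least 1 UMI, a count of 1 captured RNA molecule, in at least 1 of the libraries, and 16 stood at 0, of which 11 were pseudogenes. The recipient library held 20758 Trav UMIs (0.0509% of all UMIs of kept cells) and the donor library 26228 (0.0408%). Trav12-2 had the most UMIs in both, 1576 in the recipient and 1686 in the donor. Trav13-1 followed with 1550 in the recipient and 1406 in the donor. Trav12-1 had more UMIs in the smaller recipient library (883, against 424 in the donor), while Trav7-6 (217, against 851) and Trav14-1 (566, against 1239) had more in the donor.

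How much a member was counted moved with how much of its sequence was its own. Each transcript was cut into windows of 60 bases, and the share of windows found in no other Trav member and in no transcript of another gene was taken. The 36 genes with no such window held 767 UMIs in both libraries together, 1.63% of all Trav UMIs, with a median of 6 each. The 28 genes with some unique windows but under 50% had a median of 463 UMIs, and the 44 genes with 50% or more had a median of 563. Across the 108 genes, Spearman's rho between UMIs and unique share was 0.67, given as a description, since copies share sequence and are not independent. The members with no letter took 73.1% of the Trav UMIs, the d copies 11.2% and the n copies 15.6%. A low count of a copy therefore does not show low use, and the split between near-identical copies is uncertain throughout. Windows of Trav7-6 and Trav7n-6 were also found in C920008G01Rik, and windows of Trav13-4-dv7 in B230359F08Rik, and were not counted as unique. Trav7n-6 had 0% unique windows of 60 bases by this rule. Of its 90-base windows, compared among Trav members only, 76.4% were unique.

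**Figure D1:**
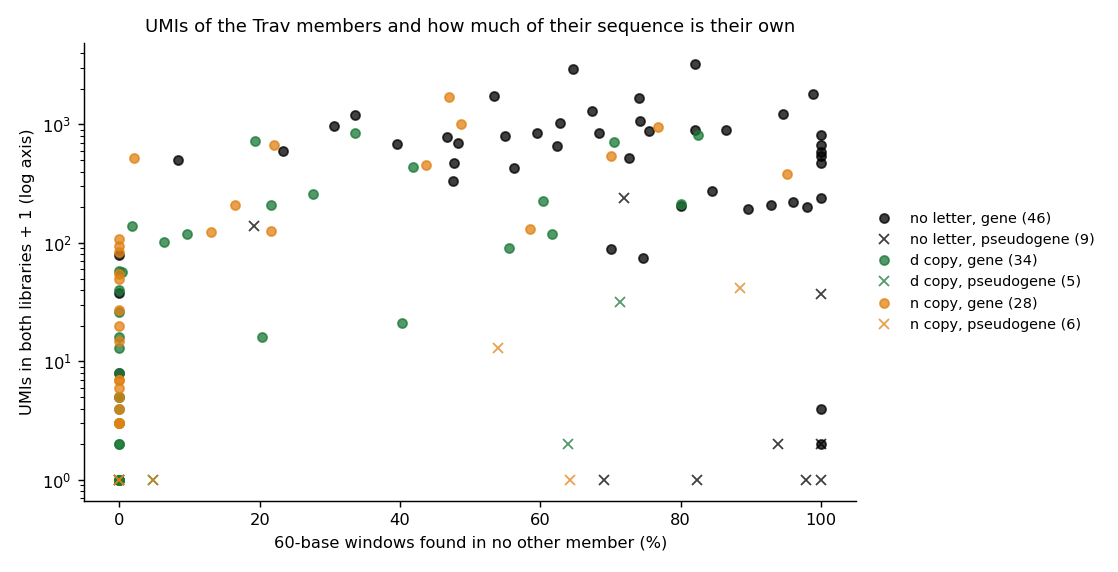
UMIs of the 128 Trav members in both libraries together, plus 1 (vertical, log axis), against the share of a member's 60-base windows found in no other member and in no other gene's transcript (horizontal, %). Each point is 1 member, coloured by copy letter, with crosses for pseudogenes. The 36 genes at 0% on the horizontal axis hold at most 106 UMIs each, while the 44 genes at 50% or more have a median of 563.

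Each kept cell was assigned its leading segment, the Trav member with the most UMIs, and cells with a tie were dropped. This gave a segment to 4141 of 5619 recipient cells (73.7%, 72.5 to 74.8) and to 5482 of 8001 donor cells (68.5%, 67.5 to 69.5). Brackets hold exact 95% binomial intervals. No Trav UMI was found in 17.35% of the recipient's cells and 24.0% of the donor's, and a tie in 8.95% and 7.51%. The median leading count was 3 UMIs in both libraries, and 21.2% of assigned recipient and 23.2% of assigned donor cells rested on 1 UMI. In all, 104 members led at least 1 cell, 100 in the recipient and 97 in the donor. The 24 members that led none held at most 4 UMIs each. J segments were counted too seldom to define joints, with a leading Traj in 7.05% of recipient and 6.42% of donor cells, so the receptors of 2 cells with the same V segments cannot be matched further.

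Libraries, cells and free RNA were checked before the segments were compared. Kept cells had medians of 7044 UMIs and 1940 genes in the recipient and of 7928 UMIs and 2075 genes in the donor. The libraries shared 65 kept barcodes, and of the 35 with a leading segment in both, 0 had the same one. The defining genes of CD8 T cells were present in every set of cells, with Cd8b1 between 1249 and 1785 CPM in the recipient and between 1315 and 1743 in the donor, where CPM are the UMIs of a gene scaled to the summed UMIs of the same cells. Cd4 stood at most at 0.336. The receptor's constant and CD3 genes were found in all sets, with Trac at 177.9 CPM in all recipient cells and 177.4 in all donor cells, Trbc2 at 496 and 402, and Cd3e at 934.5 and 817. The recombination genes Rag1 and Rag2 were at 0 UMIs in both libraries, and Dntt, which encodes terminal transferase, stood at 3.97 CPM in recipient cells and 2.25 in donor cells. Among cells led by another segment with at least 3 UMIs, Trav14-1 was seen in 5.08% (4.24 to 6.04) of 2400 recipient cells and in 3.76% (3.11 to 4.50) of 3008 donor cells, at median depths of 7448 and 8754 UMIs. The cells it led had median depths of 7218 and 6111 UMIs. For the other segments named by rule these shares ran from 0% to 4.71% in the recipient and from 0% to 3.79% in the donor, with Trav6-7-dv9 highest in both. No doublets were removed for the main values. A second Trav segment with at least 2 UMIs was present in 23.9% of the recipient's and 21.7% of the donor's cells whose top segment had at least 2, and a second Trbv segment in 23.0% and 19.9%.

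Usage was compared in 4 gates set on raw UMIs of other genes. The Cx3cr1 gate held cells with at least 1 UMI of the chemokine receptor gene Cx3cr1, which marks effector memory cells (394 recipient and 349 donor cells). The Gzmk gate held cells with at least 2 UMIs of the granzyme gene Gzmk, which marks CD8 T cells that gather with age (1186 recipient and 1285 donor cells). The Ly6c2-Ccl5 gate held cells with at least 2 UMIs of Ly6c2, at least 10 of Ccl5 and none of Gzmk (1133 recipient and 3872 donor cells), a pattern seen in central and virtual memory cells. The Ccl5-low gate held cells with no Ly6c2 and at most 3 UMIs of Ccl5 (1579 recipient and 807 donor cells), in which naive cells are expected to lie. Gates overlapped, with 240 recipient and 233 donor cells in both the Cx3cr1 and Gzmk gates, so these gates are not separate results. The Cx3cr1 and Ly6c2-Ccl5 gates shared 76 recipient and 37 donor cells. Median depths were 4721 recipient and 4705 donor UMIs in the Gzmk gate but 7002 and 7427 in the Ccl5-low gate.

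Trav13-1, Trav12-2 and Trav12-1 led the Gzmk gate of the old recipient, and Trav14-1 and Trav7-6 that of the young donor. These are shares of assigned cells, which were 78.25% of the recipient's and 56.3% of the donor's cells in this gate. Trav13-1 stayed first in 10 of 13 other settings and Trav14-1 in 9 of 14. Trav13-1 led 141 of 928 recipient cells, 15.2% (12.9 to 17.7), against 42 of 723 donor cells, 5.81% (4.22 to 7.77). Trav12-2 led 138 recipient cells, 14.9% (12.6 to 17.3), against 22 donor cells, 3.04% (1.92 to 4.57). The intervals of both segments did not overlap between libraries. Segments were named mostly for large shares or gains in a gate of 1 library, here and in the other gates. Higher shares there therefore follow in part from the choice, and the intervals are no test between libraries. Trav12-1 led 84 recipient cells, 9.05% (7.28 to 11.1), and 0 donor cells, and Trav13-4-dv7 led 44 recipient cells, 4.74% (3.47 to 6.31), and 0 donor cells. A count of 0 of 723 allows a share of up to 0.509%, the bound of the exact interval. Both segments were in use in the donor outside this gate: Trav12-1 led 100 and Trav13-4-dv7 led 35 of all donor cells.

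The donor's leading segments were scarce in the recipient's Gzmk gate. Trav14-1 led 15 recipient cells, 1.62% (0.907 to 2.65), against 111 donor cells, 15.35% (12.8 to 18.2). Trav7-6 led 2 recipient cells, 0.216% (0.0261 to 0.776), against 103 donor cells, 14.25% (11.8 to 17.0). Trav6-3 led 1 recipient cell, 0.108% (0.00273 to 0.599), against 43 donor cells, 5.95% (4.34 to 7.93). All 3 pairs of intervals were apart, but these segments too were named for their shares or gains in the donor's gate. By subgroup, Trav13 led 27.3% and Trav12 25.75% of recipient cells in this gate, against 9.54% and 5.95% of donor cells. Trav7 led 12.5% of recipient and 23.0% of donor cells, and Trav14 led 3.99% and 16.7%.

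**Figure D2:**
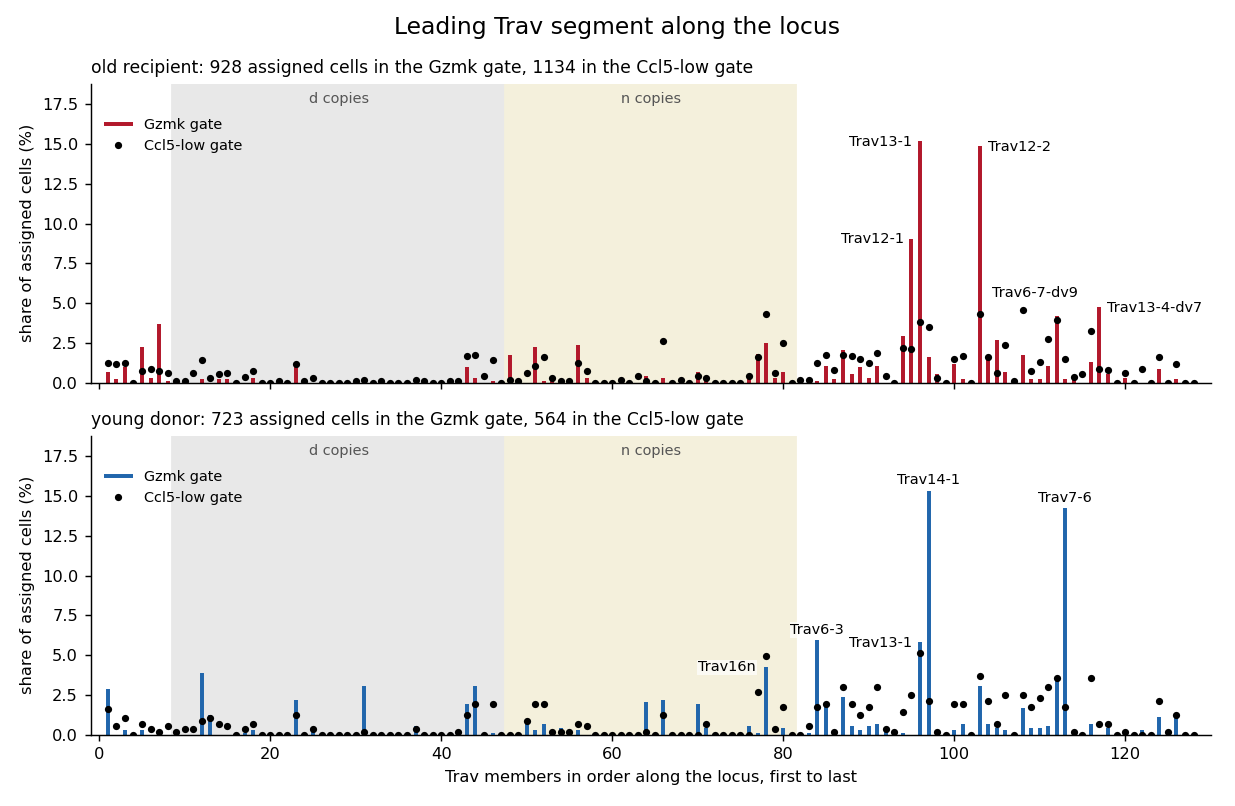
Share of assigned cells led by each of the 128 Trav members (vertical, %), in their order along the locus (horizontal), with the recipient above and the donor below. Bars are the Gzmk gate and dots the Ccl5-low gate, and shaded bands mark the d and n copies. Trav13-1 (15.2%) and Trav12-2 (14.9%) are the tallest bars of the recipient, and Trav14-1 (15.35%) and Trav7-6 (14.25%) those of the donor, while no dot passes 5.14%.

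The Cx3cr1 gate had in part the same leaders as the Gzmk gate, with which it shared 240 of its 394 recipient cells. Trav13-1 led 42 of 300 recipient cells, 14.0% (10.3 to 18.45), against 9 of 192 donor cells, 4.69% (2.17 to 8.71). Trav12-1 led 41 recipient cells, 13.7% (9.99 to 18.1), against 1 donor cell, 0.521% (0.0132 to 2.87). These shares of Trav13-1 and Trav12-1 are not separate results, since 37 recipient cells of this gate with Trbv29 held both segments, as given below. Trav14-1 led 2.00% (0.737 to 4.30) of the recipient's cells and 11.98% (7.75 to 17.4) of the donor's, and Trav7-6 0.667% (0.0808 to 2.39) and 7.29% (4.04 to 11.9). The intervals of Trav12-2 overlapped here, with 30 recipient cells, 10.0% (6.85 to 13.97), and 17 donor cells, 8.85% (5.24 to 13.8).

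The Ly6c2-Ccl5 gate was more even. Trav12-2 led 7.46% (5.75 to 9.48) of 818 recipient cells and 8.19% (7.19 to 9.28) of 2748 donor cells, and Trav13-1 6.235% (4.68 to 8.12) and 6.08% (5.21 to 7.04). The intervals overlapped for both. Trav16n stood out in the recipient, at 7.82% (6.08 to 9.88) against 3.13% (2.51 to 3.85) in the donor, as did Trav12-1, at 5.99% (4.46 to 7.84) against 2.07% (1.575 to 2.68). Most of these recipient Trav12-1 cells carried Trbv29, as given with the pairs below. Trav2 went the other way with 6 recipient cells, 0.7335% (0.27 to 1.59), against 59 donor cells, 2.15% (1.64 to 2.76). The natural killer cell markers also differed in this gate, with 5 of 5 genes found and a sum of 102.6 CPM in recipient cells, against 4 of 5 and 9.42 in donor cells, where Ncr1 was at 0. Of 4 markers of invariant natural killer or mucosal-associated invariant T cells, which share Klrb1c with that list, 2 were found in the recipient and 1 in the donor, with sums of 28.3 and 1.12 CPM. Klrb1c alone made up 28.2 and 1.12 of these. The part of these markers in the segment shares was not tested.

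In the Ccl5-low gate the shares of the libraries lay closer to each other than in the Gzmk and Cx3cr1 gates. The leading segments were Trav3-3 in the recipient (52 of 1134 cells, 4.59%) and Trav13-1 in the donor (29 of 564 cells, 5.14%). Among the 37 segments with at least 20 cells in both libraries together, the ratio of recipient to donor share ran from 0.543 (Trav10n) to 2.13 (Trav12n-3), with a median of 0.87. The exact interval of the ratio held 1 for 36 of them. The exception was Trav3-3, at 4.59% (3.44 to 5.97) of the recipient's and 2.48% (1.36 to 4.13) of the donor's cells, a ratio of 1.85 (1.009 to 3.61). The other segments at the ends of this list had intervals that held 1, as for Trav4-4-dv10 at 1.32% and 2.30%, Trav7-4 at 1.76% and 3.01%, and Trav14-1 at 3.53% and 2.13%. Such intervals were wide, with 0.219 to 1.36 for Trav10n and 0.917 to 5.75 for Trav12n-3, so they do not exclude 2-fold differences. Over the 128 members, Pearson's correlation between the recipient and donor shares was 0.91 in the Ccl5-low gate and 0.88 in the Ly6c2-Ccl5 gate. It was 0.25 in the Gzmk gate and 0.40 in the Cx3cr1 gate. These correlations describe segments that share cells and depth, and carry no test.

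**Figure D3:**
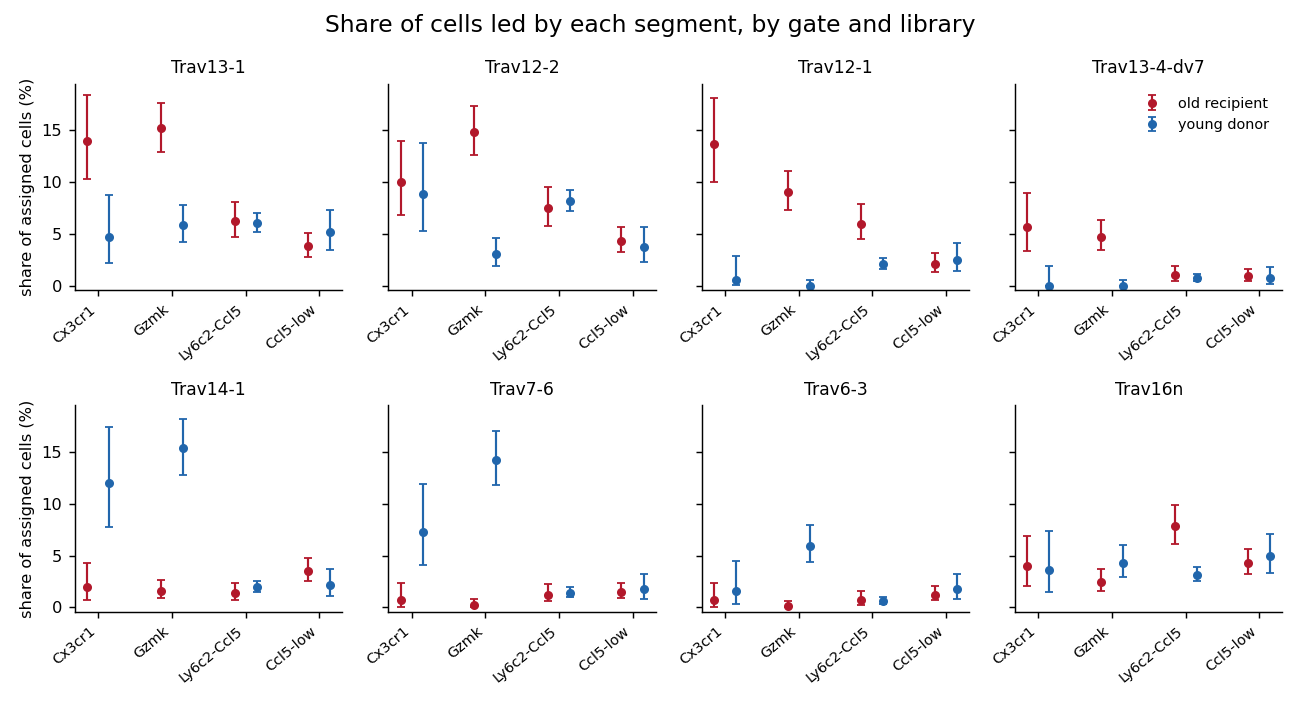
Share of assigned cells led by 8 Trav segments (vertical, %) in the 4 gates (horizontal), with the old recipient left of the young donor. Points are shares and bars exact 95% binomial intervals, which cover counting error only. Trav13-1, Trav12-1 and Trav13-4-dv7 are high in the Cx3cr1 and Gzmk gates of the recipient, Trav14-1 and Trav7-6 in those of the donor, and in the Ccl5-low gate the intervals of the libraries overlap for all 8.

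Position along the locus was compared too. In the Gzmk gate of the recipient, members with a letter d led 3.99% (2.82 to 5.45) of cells, against 17.15% (14.5 to 20.1) in the donor. In the Ccl5-low gate they led 140 recipient cells, 12.35% (10.5 to 14.4), and 71 donor cells, 12.6% (9.96 to 15.6). Of the donor's 124 such cells in the Gzmk gate, 25 carried Trav7d-3 with Trbv3, 22 Trav9d-3 with Trbv12-1 and 18 Trav16d-dv11 with Trbv20. Trav9d-3 and Trav9n-3 have identical V exons, so whether those 22 cells belong to the d or the n copies is uncertain. The 47 members after the n copies, which hold all 4 leading segments named above, led 73.2% (70.2 to 76.0) of the recipient's and 64.45% (60.8 to 67.95) of the donor's cells in the Gzmk gate. In the Ccl5-low gate their shares were 61.55% (58.65 to 64.4) and 64.0% (59.9 to 68.0).

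The same comparison was made over UMIs summed across cells. Of the 40 members with at least 50 UMIs in the Gzmk gates of both libraries together, 30 differed at least 2-fold in CPM between recipient and donor, 22 higher and 8 lower, while 1.40% of all genes with that many UMIs did. The median log2 ratio of the members was 1.685, against 0.04 for all genes. Because the minimum was set on both libraries together, members abundant in 1 library alone entered, and such members are likely to pass 2-fold. The other 88 members were not measured. Summed over the gate, Trav UMIs as a whole also stood higher in the recipient (770 CPM, against 454 in the donor). Trav12-1 reached 54.4 CPM in recipient cells and 1.37 in donor cells (log2 ratio 5.31, 4.42 to 6.39), and Trav12-2 reached 92.6 and 11.5 (3.01, 2.68 to 3.36). Trav13-4-dv7 was counted with 285 UMIs in recipient cells and 1 in donor cells, which makes the log2 ratio 8.27 with a counting interval of 5.78 to 13.6. Trav14-1 stood at 17.9 and 80.9 CPM (-2.17, -2.47 to -1.89), and Trav7-6 at 3.11 and 65.4 (-4.39, -5.10 to -3.76).

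The other gates had smaller shares of such members, except for the Cx3cr1 gate. There 10 of 12 members differed at least 2-fold between recipient and donor, 8 higher and 2 lower, against 1.33% of all genes. In the Ly6c2-Ccl5 gate 9 of 61 did, 6 higher and 3 lower (1.87% of all genes), and in the Ccl5-low gate 6 of 45, 4 higher and 2 lower (1.13%). Over all kept cells 11 of 76 did, 7 higher and 4 lower (2.64%). In every gate the minimum was set on both libraries together. These counts move with the UMI minimum, since without one 68 members of the Gzmk gate differed at least 2-fold, and with 200 UMIs 10 of 11. The share of all genes at these other minima is not given here, so these 2 counts describe the setting only. A V segment is transcribed by the cells that joined it, unlike most genes counted in that background.

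Set against the Ccl5-low gate of the same library, members moved both ways. In the recipient, 28 of 44 members differed at least 2-fold in the Cx3cr1 gate, 14 higher and 14 lower (14.5% of all genes), and 25 of 51 in the Gzmk gate, 14 higher and 11 lower (13.6%). In the donor the counts were 19 of 29 in the Cx3cr1 gate, 6 higher and 13 lower (11.5%), and 21 of 34 in the Gzmk gate, 8 higher and 13 lower (12.0%). The Ly6c2-Ccl5 gate had 8 of 49 in the recipient, 1 higher and 7 lower (6.27%), and 17 of 59 in the donor, 8 higher and 9 lower (7.82%). These comparisons share the Ccl5-low cells of their library.

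Each assigned cell was then given its leading Trbv segment, which was found in 97.1% of all recipient and 96.5% of all donor cells. A Trav-Trbv pair is not a clonotype, because joints are not read here, so cells of 1 pair may descend from several precursors. In the Gzmk gate of the recipient, 71 of 920 cells carried Trav12-2 with Trbv5 (7.72%, 6.08 to 9.635), 69 carried Trav12-1 with Trbv13-2 (7.50%, 5.88 to 9.40) and 60 carried Trav13-1 with Trbv13-3 (6.52%, 5.01 to 8.315). In the same gate of the donor, 96 of 713 cells carried Trav14-1 with Trbv19 (13.5%, 11.0 to 16.2), 47 Trav7-6 with Trbv4 (6.59%, 4.88 to 8.67) and 44 Trav7-6 with Trbv3 (6.17%, 4.52 to 8.20). Pairing was far from even within a segment. Of the donor's Trav14-1 cells in this gate 88.9% had Trbv19, of its Trav6-3 cells 93.0% had Trbv14, and of the recipient's Trav12-1 cells 82.1% had Trbv13-2. The recipient's Trav13-1 cells were split, with 42.9% carrying Trbv13-3 and 35.7% carrying Trbv1. If Trav and Trbv were drawn independently within the gate, Trav14-1 with Trbv19 would have had 20.75 donor cells, and Trav12-1 with Trbv13-2 would have had 9.95 recipient cells. With at least 3 UMIs required of both leading segments, Trav14-1 with Trbv19 held 22.4% of the donor's paired cells in this gate.

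These pairs were rare in the other library. Over all kept cells, Trav12-2 with Trbv5 was found in 86 recipient and 11 donor cells, Trav12-1 with Trbv13-2 in 79 and 8, and Trav13-1 with Trbv13-3 in 75 and 13. Trav14-1 with Trbv19 was found in 7 recipient and 120 donor cells, Trav7-6 with Trbv4 in 2 and 51, and Trav7-6 with Trbv3 in 2 and 55. Most cells of these 6 pairs lay in the Gzmk gate of the library where they were common, from 80.0% to 92.2%. The 6 pairs were picked as the 3 with the most cells in the Gzmk gate of each library. Their place in that gate and their lower counts in the other library therefore follow in part from the choice. Of the 74 pairs with at least 10 recipient cells, 44 (59.5%) also had at least 10 donor cells, which were 37.9% of the donor's 116 such pairs.

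The leading pairs of the other gates were counted in the same way. In the Cx3cr1 gate of the recipient, Trav12-1 with Trbv29 came first (29 of 293 cells, 9.90%, 6.73 to 13.9), followed by Trav13-1 with Trbv29 (16 cells) and Trav12-2 with Trbv5 (14 cells). In the donor, Trav14-1 with Trbv19, also first in its Gzmk gate, with which the Cx3cr1 gate shares cells, came first (19 of 190 cells, 10.0%, 6.13 to 15.2), then Trav12-2 with Trbv31 (14 cells) and Trav3-3 with Trbv13-2 (10 cells). Thinned to 3500 UMIs per cell, the recipient's first pair held 5.48%. The Trav12-2 cells of the Cx3cr1 gates, at like shares in both libraries, had Trbv5 in 46.7% of the recipient's cells and Trbv31 in 82.35% of the donor's. In the Ly6c2-Ccl5 gate, Trav16n with Trbv14 led in the recipient (36 of 779 cells, 4.62%, 3.26 to 6.34) and Trav2 with Trbv19 in the donor (42 of 2643 cells, 1.59%, 1.15 to 2.14). Second in the recipient was Trav12-1 with Trbv29 (29 cells, 3.72%), the first pair of its Cx3cr1 gate. It made up 63.0% of the recipient's paired Trav12-1 cells in the Ly6c2-Ccl5 gate. Trav2 with Trbv19 made up 73.7% of the donor's Trav2 cells there, and held 2.42% of the gate with at least 3 UMIs of both segments. In the Ccl5-low gate no pair passed 1%, with Trav3-3 and Trbv13-1 in 11 of 1110 recipient cells (0.991%) and both Trav13-1 with Trbv19 and Trav8n-2 with Trbv13-3 in 5 of 549 donor cells (0.911%). Trav13-1 with Trbv19 was first there in 6 of 13 settings.

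Summed counts of genes outside the receptor differed between pairs. Genes used for the gates follow from where a pair was found, so other genes are given here as CPM over all cells of a pair in its library. Recipient cells with Trav12-2 and Trbv5 had 367 CPM (310 to 432) of Pdcd1, the gene of PD-1, 655.5 (578 to 741) of Lag3 and 510 of Tigit, all inhibitory receptor genes, and 329 of Tox, a transcription factor gene of exhausted T cells. Recipient cells with Trav12-1 and Trbv13-2 had 19.8 CPM (9.05 to 37.55) of Pdcd1 and 39.6 of Lag3, and those with Trav13-1 and Trbv13-3 had 48.0 (30.1 to 72.7) and 54.5. Donor cells with Trav14-1 and Trbv19 had 40.1 CPM (25.95 to 59.2) of Pdcd1, 81.8 of Lag3 and 213 of Tox. These intervals are exact Poisson intervals of the summed UMIs, and those of Pdcd1 in the first pair and in the other 3 did not overlap. They cover counting error only and leave out the spread between cells and between mice. Recipient cells with Trav12-1 and Trbv29 had 2377 CPM of the granzyme gene Gzma, against 2.55 in those with Trav12-2 and Trbv5, and 198 CPM of Klrg1, an inhibitory receptor gene of effector cells, against 25.5. These 2 pairs also differed in gate, with 61.7% of the former in the Cx3cr1 gate and 82.6% of the latter in the Gzmk gate.

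Sharing of receptors was summed up as the share of all cell pairs in a gate that carry the same Trav-Trbv combination. It was 2.49% in the recipient and 3.82% in the donor in the Gzmk gate, and 1.99% and 2.82% in the Cx3cr1 gate. In the Ly6c2-Ccl5 gate it was 0.547% in the recipient and 0.205% in the donor, and in the Ccl5-low gate 0.131% and 0.121%. Sharing in the Gzmk gate was thus 19.0 times that of the Ccl5-low gate in the recipient and 31.6 times in the donor, while the Ly6c2-Ccl5 gate stood at 4.19 and 1.70 times. The donor had the higher sharing in the Gzmk and Cx3cr1 gates and the recipient in the Ly6c2-Ccl5 gate. With at least 3 UMIs of both leading segments, sharing in the Gzmk gate was 3.17% in the recipient and 7.32% in the donor. In the Cx3cr1 gate it was 1.12% in the recipient after thinning and 5.49% in the donor among cells of exactly 1 gate. Trav alone gave a narrower range, with 6.49% in the recipient and 6.21% in the donor in the Gzmk gate against 2.06% and 2.14% in the Ccl5-low gate. In 150 cells of the Gzmk gate an average of 76.6 distinct pairs would be met in the recipient and 61.8 in the donor, against 136.9 and 137.4 in the Ccl5-low gate. Pairs with at least 10 cells held 53.3% of paired recipient and 67.0% of paired donor cells in the Gzmk gate, against 0.991% and 0% in the Ccl5-low gate. Cells counted here are those with both chains assigned, 1 library each, and clonal relatives cannot be told apart from cells that share V segments only.

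**Figure D4:**
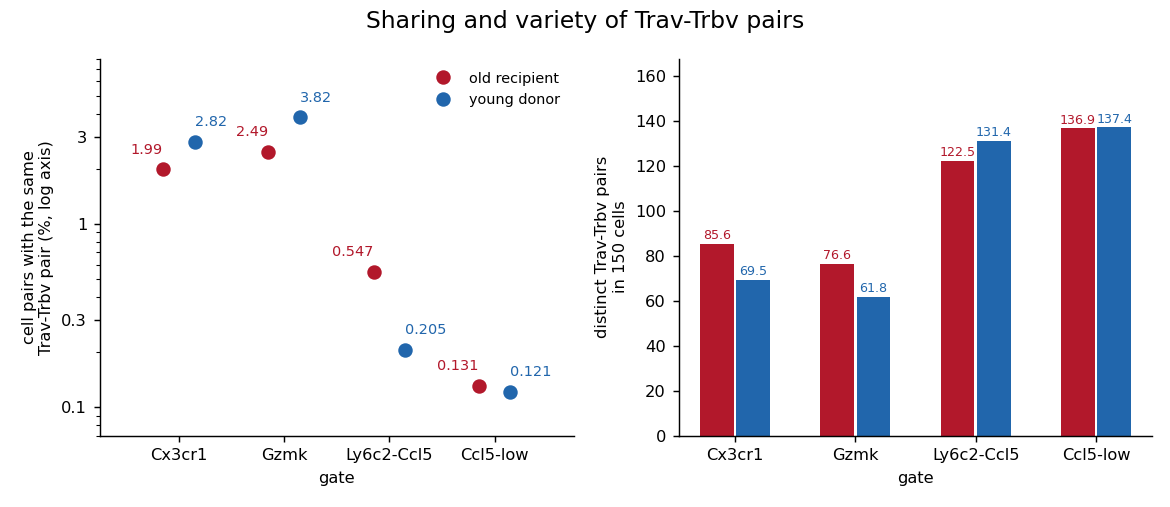
Left, the share of cell pairs with the same Trav-Trbv combination (vertical, %, log axis) by gate, and right, the average number of distinct combinations in 150 cells, with the old recipient left of the young donor. Sharing is highest in the Gzmk gate (2.49% in the recipient and 3.82% in the donor) and lowest in the Ccl5-low gate (0.131% and 0.121%), where 136.9 and 137.4 distinct combinations are met in 150 cells.

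Some cells carried a pair of Trav segments together. Among recipient cells with Trbv16 and a UMI of Trav13-2 or Trav7-5, 54 (69.2%, 57.8 to 79.2) had both, against 0.498% (0.0126 to 2.74) of recipient cells that had 1 or both of them with another Trbv, and 50 of the 54 lay in the Gzmk gate. Among recipient cells with Trbv29 and Trav12-1 or Trav13-1, 58 (54.7%, 44.75 to 64.4) had both, against 3.56% (2.16 to 5.50) with another Trbv. These 58 cells had a median depth of 3012 UMIs, below the library's median of 7044. Of them 37 lay in the Cx3cr1 gate, 35 in the Ly6c2-Ccl5 gate and 10 in the Gzmk gate, which overlap in part. Together the 58 cells had 3246 CPM of Gzma and 375 of Klrg1. The recipient's first and second pairs of the Cx3cr1 gate, Trav12-1 with Trbv29 and Trav13-1 with Trbv29, thus hold cells that carry both segments and were split by which had more UMIs. In the donor, Trav14-1 and Trav6-5 were both found in 70 cells with Trbv19 (47.6%, 39.3 to 56.0), against 2.50% (1.15 to 4.69) with another Trbv, and 61 lay in the Gzmk gate. Trav1 and Trav16n were both found in 57 donor cells with Trbv29 (47.1%, 37.97 to 56.4), against 1.58% (0.516 to 3.65). Trav12-2 and Trav2 were both found in 35 donor cells with Trbv19 (35.0%, 25.7 to 45.2), against 0% (up to 0.835) with another Trbv, and 23 lay in the Ly6c2-Ccl5 gate. In the other library, 4 of these 5 combinations had 0 cells, and 2 recipient cells had Trav1, Trav16n and Trbv29. The combinations were picked after their values were seen, as segments found together with 1 Trbv in 1 library. The contrasts with other Trbv segments and the low counts in the other library therefore follow in part from the choice. Recipient cells with Trbv12-2 also had Trav13d-1 and Trav13n-1 together in 20 cells (57.1%, 39.35 to 73.7), but these V exons were 99.64% identical and 31.1% of cells with another Trbv had both.

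The share of cells with a leading segment itself differed in the Gzmk and Cx3cr1 gates. In the Gzmk gate 78.25% (75.8 to 80.6) of the recipient's and 56.3% (53.5 to 59.0) of the donor's cells had one, and in the Cx3cr1 gate 76.1% (71.6 to 80.3) and 55.0% (49.6 to 60.3). The Ly6c2-Ccl5 gate had 72.2% and 71.0%, and the Ccl5-low gate 71.8% and 69.9%. Median depth in the Gzmk gate was 4721 UMIs in recipient and 4705 in donor cells. With each cell thinned to 3500 UMIs, which left out the 500 recipient and 463 donor cells that were shallower, the Gzmk gate had 73.9% (70.8 to 76.8) of the recipient's and 48.4% (44.9 to 51.8) of the donor's cells assigned. Summed over the gate, Trav UMIs made up 770 CPM of recipient cells and 454 of donor cells, while Trbv UMIs made up 2760 and 2751.

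Cells without a leading Trav in the donor's Gzmk gate were spread unevenly over Trbv segments. In the donor's Gzmk gate, 55 of 252 cells with Trbv17 had a leading Trav (21.8%, 16.9 to 27.4), and of 229 with Trbv12-1 27.1% (21.4 to 33.3) had one. The same Trbv segments outside the gate had 59.7% and 64.4%. Cells with Trbv3 in the gate had 87.5%. In the recipient's Gzmk gate no Trbv segment with at least 30 cells fell below 52.8%, with Trbv17 at 79.1% (68.95 to 87.1) and Trbv12-1 with 36 of 40 cells assigned (76.3 to 97.2%). The lowest was Trbv13-1, with 28 of 53 cells assigned (52.8%, 38.6 to 66.7), against 72.96% (67.6 to 77.85) outside the gate. A lower share in the gate was therefore not limited to the donor. Of the donor's 552 cells in this gate with a Trbv but no assigned Trav, 197 (35.7%) carried Trbv17 and 167 (30.25%) Trbv12-1. Each of these sets is larger than the largest counted pair of that gate, the 96 cells with Trav14-1 and Trbv19. The segment and pair shares of the donor's Gzmk gate therefore leave out most cells of these 2 Trbv groups. Without all cells of both, a setting chosen after seeing the data, sharing of pairs there was 5.21%, against 3.82% with them. In the donor's Cx3cr1 gate, Trbv12-1 had a leading Trav in 26.1% of 88 cells, Trbv17 in 35.9% of 39 and Trbv31 in 47.4% of 38. The 65 Trbv12-1 cells without one outnumber the 19 cells of that gate's first pair. Without all cells of these 3 Trbv segments, by the same setting, sharing there was 4.31%, against 2.82% with them. In the recipient's Cx3cr1 gate the 3 Trbv segments with at least 30 cells had 68.1% to 83.8%.

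**Figure D5:**
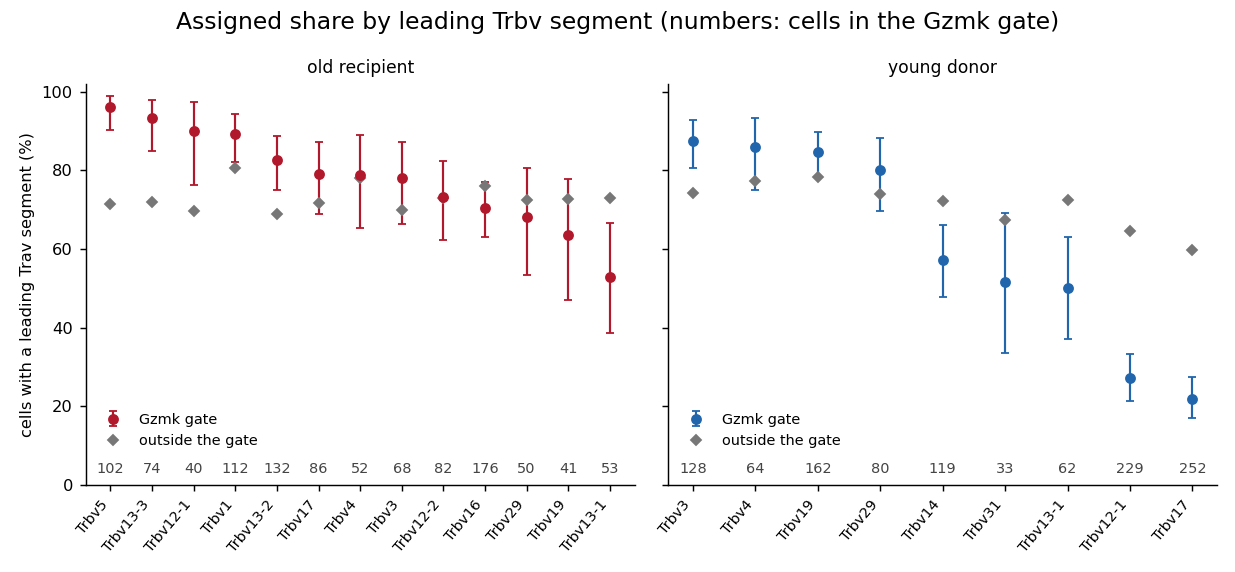
Share of cells with a leading Trav segment (vertical, %) by leading Trbv segment (horizontal) in the Gzmk gate, for Trbv segments with at least 30 cells, with the old recipient left and the young donor right. Circles are cells of the gate with exact 95% binomial intervals, diamonds are cells with the same Trbv outside the gate, and numbers are cells of the gate. Donor cells with Trbv17 (21.8%) and Trbv12-1 (27.1%) lie far below the rest. The lowest recipient segment is Trbv13-1, at 52.8% in the gate and 72.96% outside it.

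Traces of single segments were seen in these donor cells. Of the 252 with Trbv17, 20 (7.94%) had a UMI of Trav3n-3, against 2 of the other 1033 Gzmk-gate cells, and 15 had a UMI of Traj21, against 0. Of the 229 with Trbv12-1, 28 (12.2%) had Trav9d-3, against 3 of 1056, and 19 (8.30%) had Trav9n-3, against 5. None of these 3 Trav members had a single 60-base window of its own, and the V exons shown above for Trav9d-3 and Trav3n-3 are identical to those of Trav9n-3 and Trav3d-3. Trdv1, a V segment of the delta chain that lies within the same locus, had 577 UMIs in 110 (48.0%) of the Trbv12-1 cells, against 71 UMIs in 21 of the other 1056 cells, while the delta constant gene Trdc stood at 0.821 CPM in the donor's Gzmk gate. Whether these cells use a member whose reads were not counted was not tested.

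Segments known for unconventional T cells were looked up by name. Trav11 and its near-identical copy Trav11d, the segments of the invariant receptor of natural killer T cells in mice, led 1 recipient and 1 donor cell (Trav11) and none (Trav11d). Neither has a window of its own, so these counts do not show whether the segments were used. Trav11n, annotated as a pseudogene, led 8 recipient and 3 donor cells. Trav1, the V segment of mucosal-associated invariant T cells, led 46 recipient and 76 donor cells, of which 38 donor cells had Trbv29. Of these Trav1 cells 6 recipient and 21 donor cells lay in the Gzmk gate. Trbv29 was carried by 19 of the donor's paired Trav1 cells in that gate (90.5%). Trav1 also led 20 of the 57 donor cells with Trbv29, given above, that held both Trav1 and Trav16n. The 4 markers of invariant natural killer or mucosal-associated invariant T cells summed to 1.64 CPM in the donor's Gzmk gate. Whether any Trav1 cell was a mucosal-associated invariant T cell was not tested. The remaining segment named by rule, Trav16, led 3.26% of recipient and 3.55% of donor cells in the Ccl5-low gate. Summed markers of other cells reached at most 102.6 CPM for 5 natural killer cell genes, 67.9 for 4 gamma delta T cell genes, 52.25 for 3 CD4 or regulatory T cell genes, 32.8 for 4 B cell genes, 29.0 for 5 myeloid genes, 28.3 for 4 genes of invariant natural killer or mucosal-associated invariant T cells and 10.5 for 4 red cell genes, against at least 4808 for 8 CD8 T cell genes. The CD4 or regulatory T cell genes summed to 52.25 CPM in the recipient's Ccl5-low gate and 24.4 in the donor's, with Cd4 itself at 0 and 0.336.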

How the data were processed

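The deposited files held raw UMI counts per gene and barcode, made by the authors with Cell Ranger 3.0.2, per the file headers. The submitters' processing notes also name Seurat and the mm10 build. The annotation release and the calling of cells are not given in the sources used here. From these counts, cells with at least 500 genes and at most 10% mitochondrial UMIs were kept, 5619 with 40778960 UMIs in the recipient and 8001 with 64351287 UMIs in the donor. Features with the same symbol were summed. Segments were placed and cut into windows with GENCODE M21 transcripts. Ties for the leading segment were dropped, and no doublets were removed in the main values.

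With 1 library per group no test was run. Shares carry exact 95% binomial intervals, and ratios of summed counts (CPM) exact intervals for 2 Poisson counts. Cells and molecules were treated as independent draws, so intervals cover counting error only. The members, gates and lists were chosen with earlier results of these data known. Segments named were the 5 with the largest share in each gate and library, the 3 with the largest gain over the Ccl5-low gate, the 3 highest and 3 lowest ratios in that gate, and Trav1, Trav11 and Trav11d. Pairs named were the 3 with the most cells in each gate and library. Other features named, such as Trav11n, Trav3n-3, Trav9d-3, Traj21, Trdv1 and the segments found together, were picked after their values were seen. Settings changed 1 at a time were the UMIs and margin needed to lead, the level of copies or subgroups, cell filters, doublets, gate thresholds, gate overlap, thinning, the UMI minimum, the fold and TMM scaling. Leaving out Trbv segments of low assignment and using 90-base windows were added after seeing the data. The functions used were run on simulated data with known answers. There each cell held 1 segment and no segments shared sequence. Shared copies, second alpha chains and free RNA at the levels seen here were not covered. Python 3.11.15, numpy 2.4.6, pandas 2.3.3, scipy 1.17.1, Biopython 1.88, scikit-learn 1.9.0, matplotlib 3.10.9, R 4.3.3 and edgeR 4.0.16 (TMM only) were used.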

Additional observations from a re-analysis of the deposited data

Results flagged for a closer look

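For 4 segments in the Gzmk gate and 4 in the Cx3cr1 gate, the share moved away from that in the Ccl5-low gate in opposite directions in the 2 libraries, by at least 5 percentage points in 1 of them. Each value is the gate's share minus the Ccl5-low share, and with 1 library each the difference between libraries was not tested. In the Gzmk gate, Trav12-2 stood at 10.55 points in the recipient and -0.6805 in the donor. Trav12-1 stood at 6.935 points in the recipient and -2.48 in the donor. Trav14-1 stood at -1.91 points in the recipient and 13.2 in the donor, and Trav7-6 at -1.28 and 12.5. In the Cx3cr1 gate, which shares cells with the Gzmk gate, Trav12-1 stood at 11.55 points in the recipient and -1.96 in the donor. Trav13-1 stood at 10.2 points in the recipient and -0.454 in the donor there. The recipient's values of Trav12-1 and Trav13-1 in that gate are not separate, since some of its cells with Trbv29 held both segments. Trav14-1 stood at -1.53 points in the recipient and 9.85 in the donor, and Trav7-6 at -0.8325 and 5.52. Of the shares behind the smaller of each pair of values, Trav12-1 in the donor's Gzmk gate and Trav7-6 in the recipient's had intervals apart from those in the Ccl5-low gate, and the others had overlapping ones.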

How the results depend on the processing

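Sharing of pairs stayed above that of the Ccl5-low gate in every memory gate and both libraries under all 14 settings, from 6.26 to 24.2 times in the recipient's Gzmk gate and from 10.7 to 50.9 times in the donor's. Trav14-1 with Trbv19 was the donor's first pair there in 14 of 14, while Trav12-2 with Trbv5 was the recipient's first in 7 of 13. Among single segments of that gate, Trav14-1 was the donor's first in 9 of 14 and Trav13-1 the recipient's first in 10 of 13. Trav16n was first in the recipient's Ly6c2-Ccl5 gate in 7 of 13. In the Ccl5-low gate Trav3-3 was the recipient's first in 9 of 13 and Trav13-1 the donor's in 8 of 13. With at least 2 UMIs of both leading segments, 65.7% of recipient and 40.5% of donor cells of the Gzmk gate were assigned, and in the donor the leading pair held 18.2% and sharing was 5.585%. With at least 3 UMIs, 52.2% and 31.7% were assigned, sharing was 3.17% and 7.32%, the donor's leading pair held 22.4%, and Trav2 with Trbv19 held 2.42% of the donor's Ly6c2-Ccl5 gate. With a leading count at least 2 times the second, 72.8% and 52.6% were assigned. Thinned to 3500 UMIs, 73.9% and 48.4% were assigned, sharing was 4.79% in the donor, Trav12-1 with Trbv29 held 5.48% of the recipient's Cx3cr1 gate, and Trav2 with Trbv19 held 1.13%. Without cells of 2 Trbv segments the leading pair held 10.3% of recipient and 10.9% of donor cells of the Gzmk gate, and sharing was 3.17% in the recipient. By subgroup sharing was 3.20% and 5.15%. In the recipient it was 3.11% with stricter gates, 2.11% with looser gates and 2.98% for cells in exactly 1 gate. In the donor it was 4.63% with doublets removed (590 cells), 2.70% without the leading pair and 5.21% without the Trbv segments of low assignment, a setting chosen after seeing the data. Of Trav members in the Gzmk gates, 68 passed 2-fold with no UMI minimum and 10 with at least 200 UMIs, of 11 so measured. Between the libraries, members past 2-fold with no minimum and with 200 UMIs numbered 69 and 2 in the Cx3cr1 gate, 31 and 3 in the Ly6c2-Ccl5 gate, and 40 and 0 in the Ccl5-low gate. Over all cells 32 passed with no minimum. Over the Ccl5-low gate they numbered 65 and 5 (Cx3cr1), 56 and 6 (Gzmk) and 35 and 3 (Ly6c2-Ccl5) in the recipient, and 66 and 3 (Gzmk) and 43 and 5 (Ly6c2-Ccl5) in the donor, with 62 for its Cx3cr1 gate with no minimum. At 1.5-fold, members past the fold between the libraries numbered 23 over all cells, 22 in the Ly6c2-Ccl5 gate and 16 in the Ccl5-low gate, and in the Ly6c2-Ccl5 over the Ccl5-low gate 23 in the recipient and 30 in the donor. The share of all genes is not given for these settings. The counts of members past the fold therefore show only how they move with the setting, and are no result about the members. With copies merged, sharing in the Ccl5-low gate was 0.222% in the recipient and 0.218% in the donor. The cause of these shifts was not tested, beyond the fewer cells or members each setting keeps. For the donor's Cx3cr1 gate over its Ccl5-low gate no member had 200 UMIs, so that setting gave no value. No paired analysis was possible because each group has 1 library. Leading counts with a median of 3 UMIs limit the assignment of single cells, and joints, clones and spread between mice could not be read.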
